A study of Mus musculus with 18 samples.

Results

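Tubule injury markers are genes that kidney tubule cells switch on, or that accumulate in them, after damage or failed repair. The 10 genes described here, Havcr1, Lcn2, Spp1, Clu, Vcam1, Timp1, Lgals3, Cd44, Sox9 and Cp, were taken by name as known markers of injured or maladaptive tubule, out of 55385 genes in the deposited tables. All 10 were found, and all 10 passed the filter on low counts that left 17575 genes for testing. The markers, and the gene lists used below, were chosen with earlier results of these data known. Whole kidneys of 18 mice were profiled by polyA RNA sequencing, in 3 groups of 6 animals with 3 males and 3 females each. Dp16 2xIFNRs mice, aged 17.7 to 18.0 weeks, carry the Dp16 duplication with the interferon receptor genes returned to the normal dosage. Dp16 mice, aged 17.1 to 18.0 weeks, carry an extra copy of the stretch of mouse chromosome 16 that corresponds to much of human chromosome 21 and serve as a model of trisomy 21. Wild-type mice, aged 17.1 to 18.0 weeks, were C57BL/6J; the labels give no strain background for the mutant groups. No group received a treatment, and a group with the receptor change on a wild-type background was not analysed here. The kidneys were therefore not injured by design, and the question put to these genes was whether their levels differed by genotype and by sex.

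When a tubule cell is damaged it loses parts of its transport programme and turns on surface receptors, secreted proteins and regulators of repair. Havcr1 (kidney injury molecule 1) lets injured proximal tubule cells take up dying neighbours, Lcn2 (neutrophil gelatinase-associated lipocalin) binds the iron carriers of bacteria, and both are used as biomarkers of acute kidney injury. Vcam1 is a marker of proximal tubule cells that fail to repair, and Sox9 is a transcription factor of tubule regeneration. Several of the markers are also made by other cells: Lcn2 by neutrophils, Lgals3, Cd44 and Spp1 by macrophages, Vcam1 by endothelium and Timp1 by fibroblasts.

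The members lie on chromosomes 2, 3, 5, 11, 14 and X (GRCm38, GENCODE M21 annotation), so none is part of the duplicated segment of chromosome 16. Havcr1 spans chr11:46735080-46779578, Lcn2 chr2:32384633-32388252, Spp1 chr5:104435118-104441050, Clu chr14:65968483-65981547, Vcam1 chr3:116109949-116129688, Timp1 chrX:20870166-20874735, Lgals3 chr14:47367751-47386160, Cd44 chr2:102811141-102901665, Sox9 chr11:112782224-112787760 and Cp chr3:19957054-20009145. Cp shares exon sequence with Hps3 on the opposite strand (875 to 1760 counts per library), and the strand setting of the counting is not stated, so reads of these genes may not be fully separated. The other overlapping genes had at most 32 counts in a library.

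The 250 bases before the RefSeq transcription start (GRCm38.p6) are printed for the 4 members that were called in both comparisons with wild-type mice and have an entry in the promoter table, since these are the sequences next to the genes that moved. Promoters were matched for 7 of the 10 members, and where a gene had several starts the window nearest to the annotated gene start was taken. Each is written 5′ to 3′ on the strand of the gene, and capitals mark a match to one of 5 motifs searched on both strands.
Lcn2, chr2:32387740-32387989, minus strand: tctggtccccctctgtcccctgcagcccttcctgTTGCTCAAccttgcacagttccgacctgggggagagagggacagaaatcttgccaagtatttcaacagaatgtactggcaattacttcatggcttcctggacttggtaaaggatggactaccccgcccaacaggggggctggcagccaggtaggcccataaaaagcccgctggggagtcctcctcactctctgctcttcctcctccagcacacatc
Spp1, chr5:104434861-104435110, plus strand: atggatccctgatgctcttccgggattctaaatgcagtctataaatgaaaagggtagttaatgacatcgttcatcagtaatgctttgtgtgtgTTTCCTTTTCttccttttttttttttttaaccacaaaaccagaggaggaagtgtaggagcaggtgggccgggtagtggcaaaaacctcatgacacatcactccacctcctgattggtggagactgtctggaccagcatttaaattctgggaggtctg
Lgals3, chr14:47373610-47373859, plus strand: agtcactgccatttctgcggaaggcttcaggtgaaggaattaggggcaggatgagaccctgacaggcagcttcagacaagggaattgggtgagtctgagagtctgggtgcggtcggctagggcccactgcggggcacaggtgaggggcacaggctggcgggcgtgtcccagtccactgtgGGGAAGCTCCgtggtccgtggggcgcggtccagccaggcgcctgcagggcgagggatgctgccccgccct
Cd44, chr2:102901666-102901915, minus strand: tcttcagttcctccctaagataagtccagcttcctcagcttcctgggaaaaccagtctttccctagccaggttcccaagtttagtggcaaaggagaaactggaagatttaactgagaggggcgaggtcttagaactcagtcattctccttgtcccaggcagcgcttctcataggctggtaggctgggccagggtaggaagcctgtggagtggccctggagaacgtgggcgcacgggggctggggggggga
The Lgals3 window lies 6109 bases inside the outermost annotated start of the gene and the Lcn2 window 513 bases inside it. The capitals in Lcn2 mark a C/EBP motif (TTGCNNAA), 216 bases before the start, which 9.56% of 32851 windows of the same kind hold. In Spp1 they mark, read on the opposite strand, the interferon-stimulated response element, 157 bases before the start, which 2.98% of windows hold. In Lgals3 they mark the NF-kappaB consensus, 70 bases before the start and present in 7.25% of windows. The Cd44 window held no match to these motifs, to AP-1 (TGANTCA, 6.75% of windows) or to STAT (TTCNNNGAA, 7.02%), and no motif was shared by the 4 windows printed.

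Libraries held 42157790 to 57814587 counts, of which mitochondrial genes took 6.34% to 10.9%. The defining markers of kidney were abundant in every library, with 217598 to 386564 counts of the proximal tubule phosphate transporter Slc34a1 and 139187 to 302855 counts of uromodulin, Umod, of the thick ascending limb. The receptor genes followed the labelled genotypes: Ifnar2 averaged 33.6 CPM (gene counts scaled to the library's effective total) in Dp16 2xIFNRs kidneys, 51.0 CPM in Dp16 kidneys and 29.2 CPM in wild-type kidneys, and Ifngr2 averaged 30.7, 47.3 and 28.0 CPM in the same order of groups. Ifnar1 averaged 37.8, 50.6 and 33.9 CPM and Il10rb 36.6, 55.4 and 37.0 CPM. By the edgeR test described below, Ifnar2 was still higher in Dp16 2xIFNRs than in wild-type kidneys (log2 fold 0.20, adjusted p = 0.0368). Ifnar1 did not pass the threshold between Dp16 2xIFNRs and Dp16 kidneys (-0.42, edgeR adjusted p = 0.113). Xist and Ddx3y matched the labelled sex in all 18 libraries.

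Per length of transcript the markers spanned a wide range in wild-type kidneys. On the length-corrected RPKM scale of the authors, Spp1 was highest at 511 ± 268 and Clu next at 189 ± 36.0, followed by Lgals3 at 21.3 ± 2.49 and Cp at 12.3 ± 5.85 (SD, n = 6). Lcn2 stood at 2.96 ± 0.606 RPKM and Vcam1 at 2.23 ± 0.738 RPKM. Below 1 RPKM were Cd44 at 0.645 ± 0.143, Havcr1 at 0.571 ± 0.364, Timp1 at 0.490 ± 0.295 and Sox9 at 0.402 ± 0.180. Animal ranges did not overlap between Spp1 and Clu, Clu and Lgals3, Cp and Lcn2, or Vcam1 and Cd44; the other neighbours in this order overlapped. Timp1 was read from 7 to 99 counts per library, Havcr1 from 23 to 225 and Sox9 from 30 to 177, so their values carry the most counting error.

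**Figure D1:**
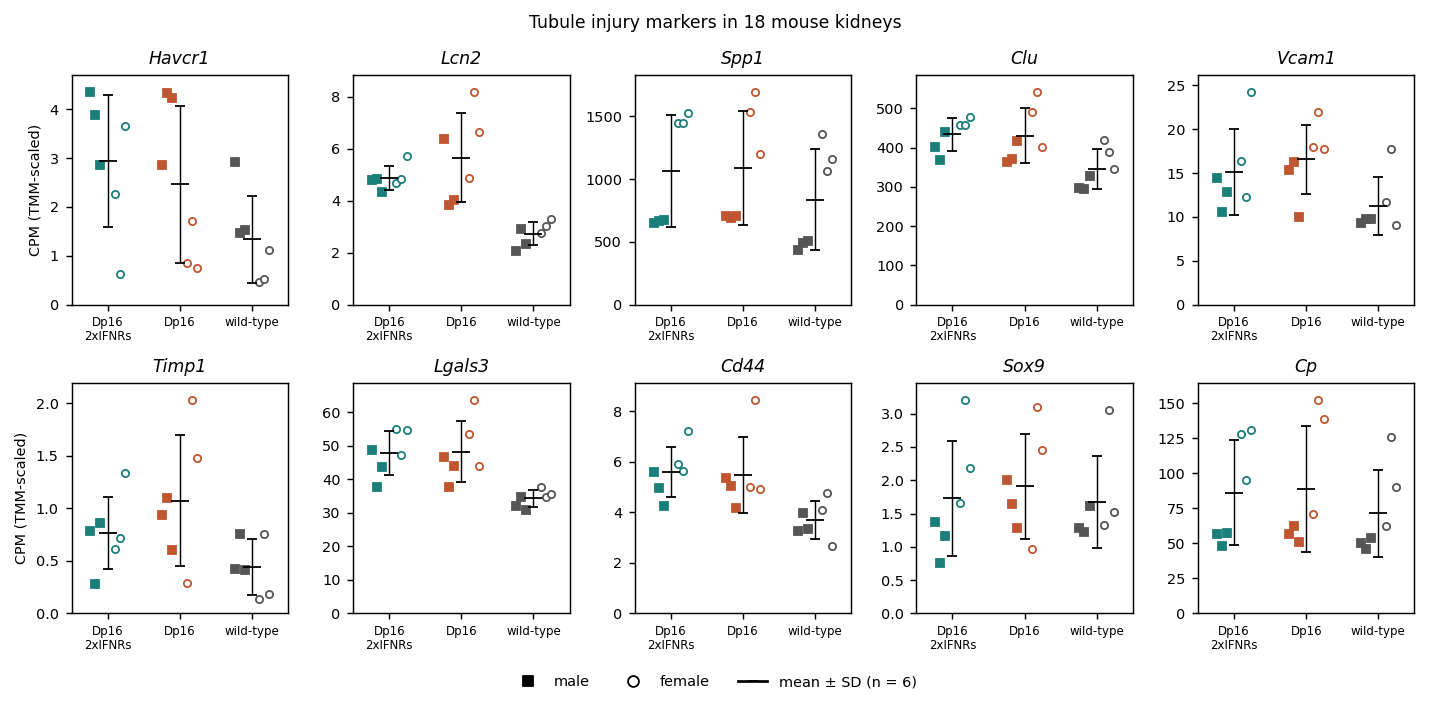
Level of each of the 10 markers in every kidney, in CPM on y axes that start at 0, with Dp16 2xIFNRs left, Dp16 in the middle and wild-type right; filled squares are males, open circles females, and bars the mean ± SD of 6 kidneys. Lcn2 and, by a narrow margin, Lgals3 are higher in CPM in every Dp16 2xIFNRs kidney than in any wild-type kidney, while Spp1 separates by sex in all 3 groups.

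In Dp16 kidneys 5 of the 10 markers, Lcn2, Lgals3, Spp1, Clu and Cd44, were higher than in wild-type kidneys and none was lower, by edgeR's quasi-likelihood test with Benjamini-Hochberg adjustment over all 17575 genes at a threshold of 0.05. Over all genes tested 3.17% were called higher in this comparison and 1.06% lower. In Dp16 2xIFNRs kidneys 6 of 10, the same 5 and Havcr1, were higher than in wild-type kidneys and none was lower, where 3.17% of all genes were called higher and 1.61% lower. The median log2 fold change of the 10 markers was 0.45 for Dp16 2xIFNRs over wild-type, where that of all genes was 0.01, and 0.52 for Dp16 over wild-type, where that of all genes was -0.01. The same 6 wild-type kidneys serve both comparisons, so the results are given side by side and are not independent of each other. Since the markers were chosen with earlier results known, the shares of all genes are given for scale and do not test an excess. In whole kidney, a change in the number of cells of a type and a change in the RNA per cell cannot be told apart.

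Lcn2 had the largest fold among the called markers of Dp16 kidneys. Its lowest, median and highest values were 4.35, 4.81 and 5.71 CPM in Dp16 2xIFNRs kidneys, 3.83, 5.61 and 8.19 CPM in Dp16 kidneys and 2.08, 2.82 and 3.31 CPM in wild-type kidneys. Every kidney of both mutant groups lay above every wild-type kidney, and the Dp16 kidneys were the most spread. Among all genes, groups were free of overlap with the mutant kidneys higher in 1.04% for Dp16 2xIFNRs over wild-type and 1.06% for Dp16 over wild-type. The log2 fold over wild-type was 0.84 ± 0.15 (SE) in Dp16 2xIFNRs (edgeR adjusted p = 0.00247, 6 of 6 kidneys above the wild-type mean of the same sex, as for every such count) and 1.04 ± 0.15 in Dp16 (adjusted p = 0.000377, 6 of 6), the second being 2.06-fold.

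Lgals3 (galectin 3), a lectin that binds beta-galactosides on cell surfaces and matrix, ranged over 37.8, 48.0 and 54.9 CPM (lowest, median, highest) in Dp16 2xIFNRs kidneys, 37.7, 45.3 and 63.5 CPM in Dp16 kidneys and 30.9, 34.7 and 37.8 CPM in wild-type kidneys. In CPM the lowest Dp16 2xIFNRs kidney lay just above the highest wild-type kidney, both 37.8 when rounded, so those groups did not overlap. On the RPKM scale they did, with 22.2 in the lowest Dp16 2xIFNRs kidney and 24.4 in the highest wild-type kidney. Within each sex these 2 groups did not overlap on either scale. In CPM 1 Dp16 kidney lay within the pooled wild-type range. The log2 fold was 0.47 ± 0.09 in Dp16 2xIFNRs (edgeR adjusted p = 0.00268, 6 of 6) and 0.48 ± 0.09 in Dp16 (adjusted p = 0.00260, 6 of 6). Lcn2 and Lgals3 were the 2 members called in both comparisons under each of 29 alternative settings or left-out libraries.

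Spp1 (osteopontin), a secreted ligand of integrins and of CD44, was read separately by sex because the sexes did not overlap. Males had 647, 664 and 674 CPM in Dp16 2xIFNRs, 688, 703 and 707 CPM in Dp16 and 438, 488 and 510 CPM in wild-type. Females had 1447, 1451 and 1528 CPM in Dp16 2xIFNRs, 1202, 1539 and 1698 CPM in Dp16 and 1066, 1159 and 1364 CPM in wild-type. Within each sex every Dp16 2xIFNRs kidney exceeded every wild-type kidney; among Dp16 kidneys this held in males, and in females 1 lay within the wild-type range. With sex in the model the log2 fold was 0.38 ± 0.08 in Dp16 2xIFNRs (edgeR adjusted p = 0.00624, 6 of 6) and 0.43 ± 0.08 in Dp16 (adjusted p = 0.00316, 6 of 6).

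Clu (clusterin), a secreted chaperone, had 368, 449 and 478 CPM as lowest, median and highest in Dp16 2xIFNRs kidneys, 363, 408 and 543 CPM in Dp16 kidneys and 294, 337 and 420 CPM in wild-type kidneys. The groups overlapped when the sexes were pooled. The log2 fold was 0.33 ± 0.07 in Dp16 2xIFNRs (edgeR adjusted p = 0.00986, 6 of 6) and 0.32 ± 0.07 in Dp16 (adjusted p = 0.0155, 6 of 6). Without Dp16 replicate 3 the Dp16 fold was 0.27 and its adjusted p 0.0521.

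Cd44, the receptor for hyaluronan, had 4.24, 5.63 and 7.21 CPM as lowest, median and highest in Dp16 2xIFNRs kidneys, 4.16, 5.03 and 8.44 CPM in Dp16 kidneys and 2.69, 3.66 and 4.78 CPM in wild-type kidneys. Within each sex no kidney of either mutant group fell into the wild-type range, although the pooled ranges overlapped. Higher without overlap in each sex were 5 markers in Dp16 2xIFNRs (Lcn2, Spp1, Clu, Lgals3 and Cd44), where 2.88% of all genes were, and 4 in Dp16 (Lcn2, Vcam1, Lgals3 and Cd44), where 2.50% were. The log2 fold was 0.59 ± 0.15 in Dp16 2xIFNRs (edgeR adjusted p = 0.0308, 6 of 6) and 0.56 ± 0.15 in Dp16 (adjusted p = 0.0435, 6 of 6). Both calls lie near the threshold: with single libraries left out the adjusted p ranged over 0.0153 to 0.0777 in Dp16 2xIFNRs and over 0.0325 to 0.128 in Dp16, where the highest value came without Dp16 replicate 3.

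Havcr1 differed by sex as well, and it ran higher in males. Males had 2.86, 3.88 and 4.36 CPM in Dp16 2xIFNRs, 2.86, 4.23 and 4.34 CPM in Dp16 and 1.47, 1.52 and 2.91 CPM in wild-type. Females had 0.636, 2.26 and 3.66 CPM in Dp16 2xIFNRs, 0.759, 0.861 and 1.72 CPM in Dp16 and 0.463, 0.535 and 1.12 CPM in wild-type. Both mutant groups overlapped the wild-type group in each sex. The log2 fold was 1.28 ± 0.35 in Dp16 2xIFNRs (edgeR adjusted p = 0.0404, 5 of 6) and 0.82 ± 0.35 in Dp16 (adjusted p = 0.218, 6 of 6, 95% interval 0.09 to 1.55). The Dp16 2xIFNRs call was lost in 16 of 29 alternatives, with an adjusted p up to 0.109 when single libraries were left out, the highest without Dp16 2xIFNRs replicate 5, where the fold was 0.96. Havcr1 stood past the threshold in one comparison and not in the other, and the direct comparison of the mutant groups gave 0.45 (95% interval -0.26 to 1.17).

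The 4 remaining markers passed the threshold in neither comparison with wild-type kidneys. Vcam1, an adhesion molecule for leukocytes that carry integrin alpha 4, had 10.6, 13.7 and 24.3 CPM as lowest, median and highest in Dp16 2xIFNRs, 9.99, 17.1 and 22.0 CPM in Dp16 and 9.08, 9.74 and 17.7 CPM in wild-type. Its log2 fold was 0.43 ± 0.16 in Dp16 2xIFNRs (edgeR adjusted p = 0.148, 5 of 6) and 0.56 ± 0.16 in Dp16 (adjusted p = 0.0582, 6 of 6). The highest wild-type kidney was replicate 5, and without it the Dp16 value was 0.68 with an adjusted p of 0.0199. That was the lowest of the 18 fits with a library left out. Their adjusted p reached 0.135, without Dp16 replicate 3, and 4 of them passed the threshold.

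Timp1, an inhibitor of matrix metalloproteinases, had 0.279, 0.751 and 1.34 CPM as lowest, median and highest in Dp16 2xIFNRs, 0.287, 1.02 and 2.03 CPM in Dp16 and 0.141, 0.419 and 0.759 CPM in wild-type. Its log2 fold, 1.23 ± 0.46 in Dp16, had an interval of 0.27 to 2.19 and an adjusted p of 0.145 in edgeR, with 5 of 6 kidneys above the wild-type mean of the same sex; in Dp16 2xIFNRs it was 0.76 ± 0.46 (-0.21 to 1.72, adjusted p = 0.412, 5 of 6). Cp (ceruloplasmin), a copper-carrying ferroxidase, gave 0.23 (-0.11 to 0.57) in Dp16 2xIFNRs and 0.28 (-0.06 to 0.62) in Dp16. Sox9 gave -0.01 (-0.58 to 0.57) in Dp16 2xIFNRs and 0.20 (-0.38 to 0.78) in Dp16. Sox9 had 0.761, 1.52 and 3.20 CPM as lowest, median and highest in Dp16 2xIFNRs, 0.963, 1.83 and 3.10 CPM in Dp16 and 1.23, 1.43 and 3.05 CPM in wild-type kidneys, so the groups overlapped almost fully.

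**Figure D2:**
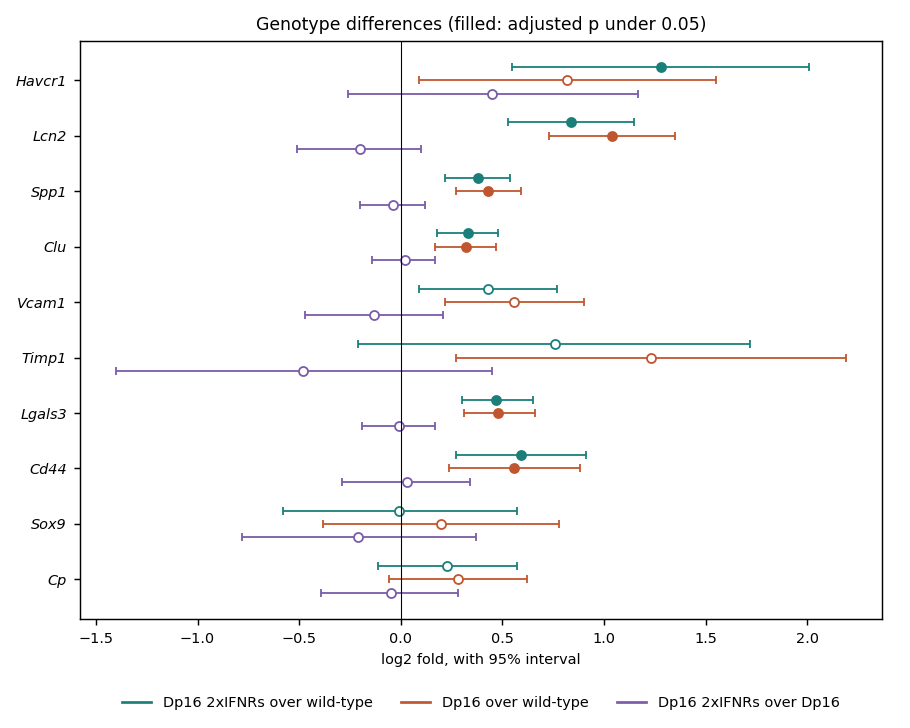
Log2 fold change of each marker with its 95% interval on the x axis, for Dp16 2xIFNRs over wild-type, Dp16 over wild-type and Dp16 2xIFNRs over Dp16, from the fit of all 18 libraries; filled points passed the adjusted threshold of 0.05. Filled points lie right of 0, at 0.32 to 1.28, and the comparison between the mutant groups has none.

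Set directly against Dp16 kidneys, Dp16 2xIFNRs kidneys showed no marker past the threshold in edgeR, with 0 of 10 at an unadjusted p under 0.05 and 0 called by DESeq2. Of all genes edgeR called 0.0171%, and 827 of 17575 had an unadjusted p under 0.05. The intervals of the log2 difference were -0.51 to 0.10 for Lcn2, -0.19 to 0.17 for Lgals3, -0.20 to 0.12 for Spp1, -0.14 to 0.17 for Clu and -0.29 to 0.34 for Cd44. For all 5 of these the bounds lie closer to 0 than the difference of either mutant group from wild-type. They were wider for the lower markers, -1.40 to 0.45 for Timp1, -0.78 to 0.37 for Sox9 and -0.26 to 1.17 for Havcr1.

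Most of the markers differed between males and females. Across genotypes 6 markers, Spp1, Cp, Clu, Vcam1, Lgals3 and Sox9, were lower in males than in females, where 19.7% of all genes tested were, and 1, Havcr1, was higher in males, where 19.0% were. The log2 fold of males over females was -1.19 ± 0.06 for Spp1 (edgeR adjusted p = 8.92e-12), -1.03 ± 0.13 for Cp (adjusted p = 3.72e-06) and 1.32 ± 0.29 for Havcr1 (adjusted p = 0.00104). Clu gave -0.28 ± 0.06, Vcam1 -0.46 ± 0.13, Lgals3 -0.25 ± 0.07 and Sox9 -0.66 ± 0.23, with adjusted p from 8.92e-12 to 0.0255 over the 6 that were lower. The Sox9 call was lost without wild-type replicate 5, Dp16 2xIFNRs replicate 3 or 4, or Dp16 replicate 3 (adjusted p 0.0549 to 0.0715), and with the last number of the sample descriptions as a random block in limma (adjusted p = 0.0924).

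Within genotypes the Spp1 difference of males over females was -1.16 in Dp16 2xIFNRs, -1.08 in Dp16 and -1.32 in wild-type kidneys, and that of Cp was -1.13, -1.08 and -0.89. Cp had 54.0 ± 4.85 CPM in males and 118 ± 19.5 CPM in females of the Dp16 2xIFNRs group, and 50.1 ± 3.64 CPM in males and 92.7 ± 32.0 CPM in females of the wild-type group (SD, n = 3). Cp was more even among males than among females in both groups. No marker passed the edgeR test of sex by genotype, with 0 of 10 called, 0 at an unadjusted p under 0.05 and 0 called by DESeq2 for either mutant group. Of all genes edgeR called 0.0171% for Dp16 and 0.00569% for Dp16 2xIFNRs, and 1380 and 621 of 17575 had an unadjusted p under 0.05. The intervals were wide for low markers, -2.99 to 0.88 for Timp1 in Dp16 and -2.16 to 0.71 for Havcr1 in Dp16 2xIFNRs. For Clu in Dp16 the interval was -0.30 to 0.32. With 3 animals per sex and genotype, a difference between the sexes may be missed. The Lcn2 log2 fold over wild-type was 0.93 in males and 0.74 in females of the Dp16 2xIFNRs group, and 0.96 in males and 1.12 in females of the Dp16 group.

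**Figure D3:**
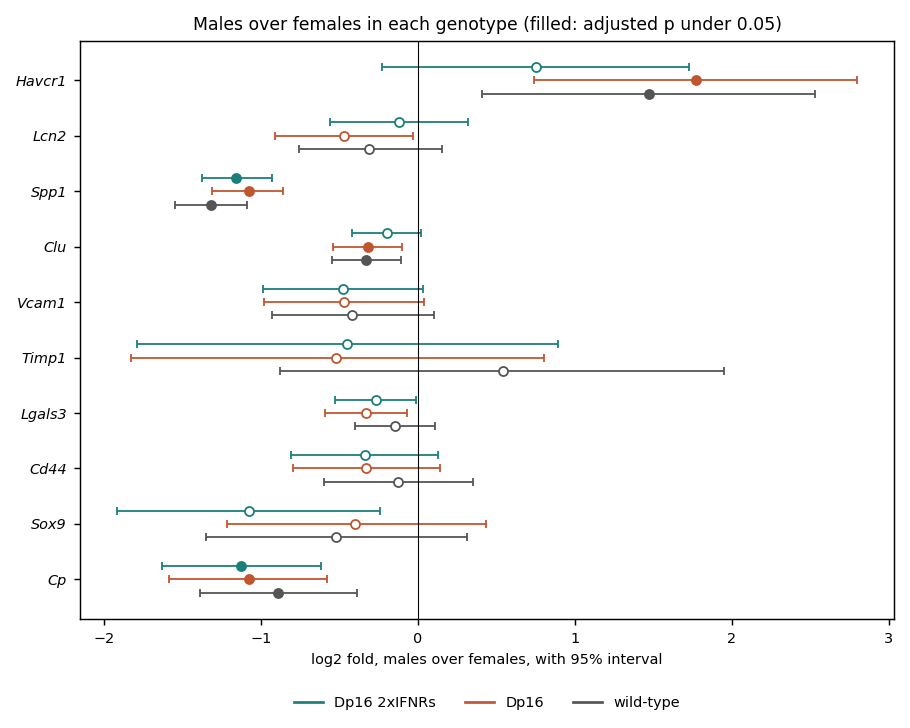
Log2 fold change of males over females for each marker with its 95% interval on the x axis, within Dp16 2xIFNRs, Dp16 and wild-type kidneys; filled points passed the adjusted threshold of 0.05. Spp1 and Cp lie left of 0 in all 3 genotypes and Havcr1 lies right of 0, at 0.75 in Dp16 2xIFNRs, 1.77 in Dp16 and 1.47 in wild-type.

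How far the markers moved together from animal to animal varied by pair. After genotype and sex were taken out of log2 CPM, the 45 pairs of markers had a median Pearson r of 0.29 over the 18 kidneys, from -0.39 to 0.84, and 36 of them were above 0. P values came from permuting animals within genotype and sex 100000 times and were adjusted over the 45 pairs. Timp1 with Cp was highest (r = 0.84, permutation p = 0.00593, adjusted 0.0889; Spearman rho = 0.79, p = 0.0112, adjusted 0.126). Vcam1 with Cd44 had r = 0.73 (permutation p = 0.00238, adjusted 0.0889) and rho = 0.79 (p = 0.00167, adjusted 0.0751). Spp1 with Cp was lowest, with r = -0.39 (permutation p = 0.405, adjusted 0.701) and rho = -0.23 (p = 0.475, adjusted 0.789). No pair of the 45 passed the adjustment for r. Without the 2 animals farthest from the median of the first-named marker, r was 0.78 for Timp1 with Cp, 0.62 for Vcam1 with Cd44 and 0.01 for Spp1 with Cp, so the last rests on those animals.

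**Figure D4:**
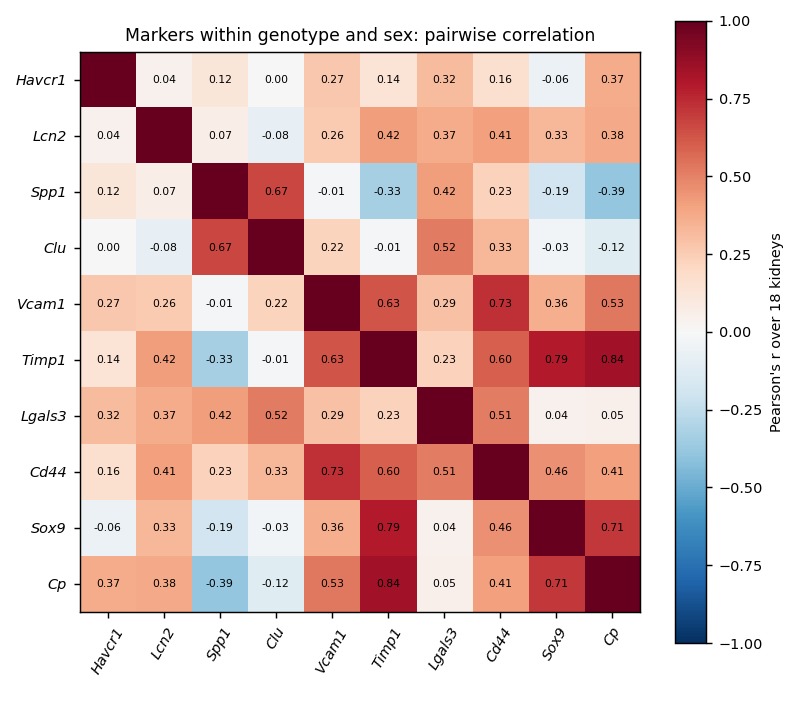
Pearson r between each pair of markers over 18 kidneys, after genotype and sex were taken out of log2 CPM, shown as coloured squares. Timp1, Sox9 and Cp have 0.71 to 0.84 with each other, and Spp1 has its lowest value, -0.39, with Cp.

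Single animals stood high in many markers. Dp16 replicate 3, a female, was the highest of its group in 9 of 10 markers, Dp16 2xIFNRs replicate 5, a female, in 7, and wild-type replicate 5, a female, in 5. These ranks pool the sexes, and only Havcr1 had a higher fitted level in males, so sex enters them. By the same measure of likeness, the genes of highest r among 12615 or 12616 genes were Tgfb1i1 (0.91), Tgfbi (0.83) and Cyp1b1 (0.82) for Vcam1, and Abca9 (0.91), Col5a3 (0.86) and Fbln2 (0.86) for Sox9. For Lgals3 they were Cd9 (0.91), Cavin3 (0.91) and Tuba1a (0.89), for Cd44 Eif3d (0.87), Trappc3 (0.84) and Ifitm3 (0.84), and for Timp1 Aoc3 (0.86), Abi3bp (0.86) and Cp (0.84). For Lcn2 they were Psmd2 (0.80), Dpy19l1 (0.79) and Gpatch4 (0.78), and for Havcr1 Klhl6 (0.78), Eif4ebp1 (0.76) and Ak7 (0.74). For Spp1 they were Cela1 (0.79), Ptcd2 (0.77) and Calb1 (0.76), for Clu Pgap2 (0.83), Eid1 (0.77) and Cabcoco1 (0.76), and for Cp Wdfy4 (0.86), Cntnap5a (0.84) and Gtf2f1 (0.83). These values describe shared variation in 18 libraries and are the highest of many.

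Of 39 listed other genes of tubule injury and repair 38 were tested. Of these 4 were higher in Dp16 2xIFNRs than in wild-type kidneys and 7 in Dp16 kidneys. Over all genes tested 3.17% were higher in each comparison, with 1.61% lower in Dp16 2xIFNRs and 1.06% lower in Dp16. These shares stand beside the counts of every list below. None of the 38 was lower, most were called in neither, and the median log2 folds were 0.25 for Dp16 2xIFNRs and 0.31 for Dp16. The keratin Krt18, which injured tubule cells gain, averaged 28.2 CPM in Dp16 2xIFNRs, 27.8 CPM in Dp16 and 20.6 CPM in wild-type kidneys, a log2 fold of 0.47 (edgeR adjusted p = 0.00493) in Dp16 2xIFNRs and 0.45 (adjusted p = 0.00703) in Dp16. Cdkn1a, which encodes the cell-cycle inhibitor p21, averaged 17.7, 24.3 and 11.6 CPM in the same order of groups, a fold of 1.05 (adjusted p = 0.00399) in Dp16 and 0.63 (adjusted p = 0.0695) in Dp16 2xIFNRs. The small heat shock protein gene Cryab was called in both comparisons, with folds of 0.30 in Dp16 2xIFNRs and 0.43 in Dp16. The keratin Krt7 was called in Dp16 (0.31), and Anxa3, an annexin, in both (0.38 in Dp16 2xIFNRs and 0.34 in Dp16).

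Among receptors, ligands and targets of the marker proteins, 4 of 19 tested of 21 listed were higher in Dp16 2xIFNRs (median fold 0.17) and 5 in Dp16 (median 0.12), none lower. Lgals3bp, a glycoprotein that binds galectin 3, averaged 132 CPM in Dp16 2xIFNRs, 135 CPM in Dp16 and 88.5 CPM in wild-type, and its log2 fold was 0.59 (edgeR adjusted p = 0.00132) and 0.61 (adjusted p = 0.000891). Itga4, the integrin chain that binds Vcam1, averaged 4.36 CPM in Dp16 2xIFNRs, 4.43 CPM in Dp16 and 2.52 CPM in wild-type (folds 0.79 and 0.82), and Itgb7, a partner chain, had folds of 0.65 and 0.63. Itgb3, a chain of an osteopontin receptor, had folds of 0.82 in Dp16 2xIFNRs and 0.76 in Dp16. These integrins are also made by leukocytes.

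Among 15 tested of 19 family relatives of the markers, 2 were higher and 1 lower in each comparison (median 0.15 in Dp16 2xIFNRs and 0.27 in Dp16). The one that fell was Timd2, which lies at chr11:46668960-46707061 beside Havcr1 and encodes a related receptor, known in mouse to take up ferritin. It was far higher in males than in females (log2 fold 4.43, edgeR adjusted p = 7.40e-14). Males averaged 42.1 ± 3.02 CPM in Dp16 2xIFNRs, 45.6 ± 3.76 CPM in Dp16 and 87.9 ± 8.33 CPM in wild-type kidneys (SD, n = 3). Females averaged 1.91 ± 0.865 CPM in Dp16 2xIFNRs, 1.49 ± 0.332 CPM in Dp16 and 5.47 ± 2.04 CPM in wild-type kidneys. With sex in the model the log2 fold over wild-type was -1.27 in Dp16 2xIFNRs (adjusted p = 0.000709) and -1.32 in Dp16 (adjusted p = 0.000471). Heph, a ferroxidase related to ceruloplasmin, was higher in both (0.38 in Dp16 2xIFNRs and 0.39 in Dp16). Icam1, an adhesion molecule, was called in Dp16 2xIFNRs (0.32) and Lgals9, another galectin, in Dp16 (0.42).

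Of 17 tested of 23 acute phase and IL-6, IL-1 and NF-kappaB response genes, 3 were higher in Dp16 2xIFNRs (Il1r1 0.48, Osmr 0.46 and Tnfaip3 0.42, median of the list 0.14) and 1 in Dp16 (Steap4 0.66, median 0.25), none lower. Of 11 tested of 12 iron handling genes, Aco1, an iron-sensing aconitase, was lower in both (-0.33 in Dp16 2xIFNRs, edgeR adjusted p = 0.00431, and -0.35 in Dp16, adjusted p = 0.00325) and Trf, transferrin, was higher in Dp16 (0.54). The medians of that list were 0.03 and -0.03. Between Dp16 2xIFNRs and Dp16 kidneys no gene of the 5 lists was called, with medians from -0.09 to 0.02.

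Markers of other cells moved beside these genes. Of 14 macrophage markers 10 were higher in each comparison, where 3.17% of all genes were, with medians of 0.55 in Dp16 2xIFNRs and 0.58 in Dp16. The summed level of the 14 was 759 to 968 CPM in Dp16 2xIFNRs, 813 to 1059 CPM in Dp16 and 507 to 728 CPM in wild-type kidneys. No mutant kidney lay in the wild-type range. The lowest and the median sum of lymphocyte markers were 10.2 and 11.9 CPM in Dp16 2xIFNRs, 9.29 and 12.8 CPM in Dp16 and 4.93 and 7.05 CPM in wild-type kidneys. The highest Dp16 sum was 21.0 CPM and the highest wild-type sum 9.40 CPM. With the sexes pooled Dp16 therefore overlapped wild-type and Dp16 2xIFNRs did not. Within each sex neither mutant group overlapped wild-type. The lowest Dp16 male had 9.29 CPM against 8.19 CPM in the highest wild-type male, and the lowest Dp16 female 13.4 CPM. Of 9 lymphocyte markers 2 were called in Dp16 2xIFNRs and 3 in Dp16, all higher. The macrophage markers Adgre1 (0.80 in Dp16 2xIFNRs and 0.63 in Dp16) and C1qa (0.48 and 0.54) were among those that rose. Macrophages make Lgals3, Cd44 and Spp1, and the part of these cells in the marker results was not tested.

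Neutrophil markers were sparse: 5 of 12 were tested, Ly6g was at 0 in 16 of 18 libraries and had at most 4 counts, and S100a8 had 0 to 79 counts. Their sum was 2.69 to 4.89 CPM in Dp16 2xIFNRs, 2.93 to 5.92 CPM in Dp16 and 1.42 to 4.97 CPM in wild-type. The wild-type value of 4.97 CPM came from replicate 3, and the other wild-type kidneys had 1.42 to 2.35 CPM, below every mutant kidney. Of the 5 tested, 2 were called in each comparison, both higher. The median log2 folds of the 5 were 0.41 in Dp16 2xIFNRs and 0.59 in Dp16. The part of neutrophils in the Lcn2 result was not tested. Of the epithelial and stromal lists, proximal tubule had 2 of 10 lower in each comparison, and endothelium (9), thick ascending limb (6), collecting duct (7) and urothelium (8) had no gene called in either. Fibroblast and mural cells had 0 of 9 in Dp16 2xIFNRs and 1 of 9 in Dp16, distal convoluted tubule 2 of 4 and 1 of 4, and podocytes 2 of 5 and 1 of 5, all higher.

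**Figure D5:**
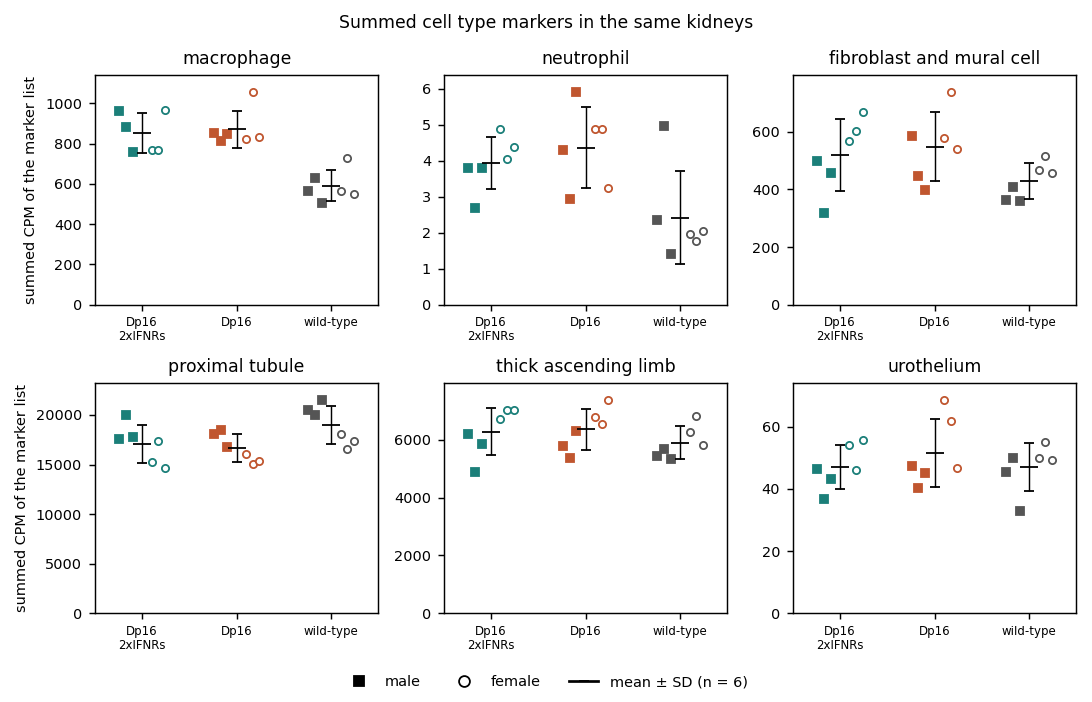
Summed level of the marker genes of 6 cell types in every kidney, in CPM on y axes that start at 0, with Dp16 2xIFNRs left, Dp16 in the middle and wild-type right; filled squares are males, open circles females, and bars the mean ± SD of 6 kidneys. The macrophage sums of both mutant groups, 759 to 1059, lie above those of the wild-type kidneys, 507 to 728. Proximal tubule sums overlap when the sexes are pooled. Within each sex those of Dp16 kidneys lie below those of wild-type kidneys. They are 16786 to 18478 against 19981 to 21475 in males and 15032 to 16105 against 16585 to 18034 in females. Proximal tubule sums of Dp16 2xIFNRs kidneys lie below wild-type in males and overlap in females.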

How the data were processed

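The 18 samples are whole mouse kidneys. TRIzol extraction, a stranded Tecan/NuGEN mRNA kit and paired NovaSeq reads are given per the labels' protocols. Build GRCm38 and the tools HISAT2 2.1.0, HTSeq 0.6.1, SAMtools 1.5, FastQC 0.11.5 and bcl2fastq are named, per the submitters' processing notes. The authors deposited raw counts per gene, without normalization, and RPKM values of the same genes, whose making is not stated. CPM was computed from the deposited counts with TMM-scaled totals. The animals are separate mice, and no 2 libraries were duplicates.

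Genes were tested with edgeR 4.0.16 (R 4.3.3) in 1 fit of 18 libraries with genotype and sex as terms, TMM scaling and a filter by group (minimum count 10, minimum total 15) that kept 17575 of 55385 genes. Two-sided p-values were adjusted over all genes tested (Benjamini-Hochberg, threshold 0.05). The SE of a log2 fold was derived from edgeR's F statistic and is approximate. Its interval uses edgeR's total degrees of freedom, residual and prior together. They were 19.5, and 17.6 in the fit with sex by genotype terms. RPKM was used to compare levels between genes. Likeness used log2 CPM with a prior count of 2. The permutation test of marker pairs was added after the data were seen. Alternatives were DESeq2 1.42.0, RLE scaling, other filters, covariates or blocks, 2 groups alone, limma 3.58.1 on log2(RPKM + pseudocount), and each library left out. Totals of 42157790 to 57814587 counts set the counting precision, and low markers carry more counting error. Only the genotype comparisons of the main edgeR fit were tested on simulated counts, which held no sex difference.

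The members and lists were chosen with earlier results of these data known. Named genes were all 10 members, the 4 genes of smallest p among those called in each pathway list and comparison, the defining cell type markers, the 3 genes of highest likeness, Xist, Ddx3y and the interferon receptors. A gene that this rule takes is not reported here. Promoters came from RefSeq.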

Additional observations from a re-analysis of the deposited data

Results flagged for a closer look

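Within groups of 6, a kidney stood apart where its gap to the nearest other kidney passed Dixon's 95% critical value as a share of the group's range. Of 63 groups checked 6 were so. Chance flags about 1 in 20 where the 6 values come from 1 distribution. These groups pool males and females, and the same kidneys recur in them, so that rate is only a rough scale. Lcn2 was 5.71 CPM in Dp16 2xIFNRs replicate 5, with 4.35 to 4.83 CPM in the others. Vcam1 was 17.7 CPM in wild-type replicate 5, with 9.08 to 11.7 CPM in the others. Cd44 was 8.44 CPM in Dp16 replicate 3, with 4.16 to 5.35 CPM in the others. Sox9 was 3.05 CPM in wild-type replicate 5, with 1.23 to 1.62 CPM in the others. The summed macrophage markers were 1059 CPM in Dp16 replicate 3, with 813 to 852 CPM in the others. The summed neutrophil markers were 4.97 CPM in wild-type replicate 3, with 1.42 to 2.35 CPM in the others.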

How the results depend on the processing

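Of 1132 member folds recomputed under alternatives 1063 stayed on the same side of the threshold, 50 were no longer past it and 19 came past it. No called fold changed sign, while 31 folds called in neither fit did: 10 of Sox9 in Dp16 2xIFNRs over wild-type (up to 0.17), 20 of Cd44, Clu, Cp and Lgals3 in Dp16 2xIFNRs over Dp16 (-0.03 to 0.05) and 1 of Timp1 in males over females (0.02). Without sex in the model 2 members, Lcn2 and Lgals3, were called for Dp16 2xIFNRs over wild-type and 2 for Dp16 over wild-type; the cause was not tested. With each library left out in turn the counts were 4 to 6 for Dp16 2xIFNRs over wild-type, 3 to 6 for Dp16 over wild-type, 3 being without Dp16 replicate 3, 0 to 0 for Dp16 2xIFNRs over Dp16, 6 to 8 for males over females and 0 to 0 for both interactions. DESeq2 called 6, 6, 0 and 8 members in the order Dp16 2xIFNRs over wild-type, Dp16 over wild-type, Dp16 2xIFNRs over Dp16, and males over females. Over all genes DESeq2 called 1287, 1236, 4 and 7168 in that order, against 841, 744, 3 and 6813 in edgeR. In the first 2 comparisons a fit without sex called 234 and 190. A fit of 2 groups alone called 453 for Dp16 over wild-type. Leaving out a library brought the edgeR counts of the first 2 comparisons down to 526 (without wild-type replicate 1) and 429 (without Dp16 replicate 3). For the interactions edgeR called 1 gene for Dp16 2xIFNRs and 3 for Dp16, DESeq2 23 and 32, and edgeR with no filter 61 and 55. Havcr1 in Dp16 2xIFNRs and Cd44 in Dp16 lost their calls in 16 and 15 of 29 alternatives, and Cd44 in Dp16 2xIFNRs in 9. Single libraries that ended the Havcr1 call were wild-type 2 to 5, Dp16 2xIFNRs 1, 2, 3 and 5 and Dp16 5 (adjusted p 0.0506 to 0.109). For Cd44 in Dp16 they were wild-type 1, 2, 4 and 6, Dp16 2xIFNRs 1 to 4 and Dp16 1, 3 and 5 (0.0506 to 0.128), and in Dp16 2xIFNRs wild-type 1, 2, 4 and 6 and Dp16 2xIFNRs 1, 2, 3 and 5 (0.0508 to 0.0777). Vcam1 in Dp16 was called in 7 of 29, including the fit without wild-type replicate 5. The sample numbers 1 to 6 were not taken to pair animals. After genotype and sex were taken out, same-numbered animals correlated at -0.17 to 0.2 for Dp16 and wild-type. For 3 Dp16 animals the wild-type animal of highest r had the same number. The range was -0.1 to 0.12 for Dp16 2xIFNRs and wild-type and -0.07 to 0.15 for Dp16 2xIFNRs and Dp16, with 2 such animals each. Whether same-numbered animals share a factor was not tested. With the replicate block 5, 6, 0 and 8 members were called in the same order of comparisons, and 0 for both interactions. Over all genes that block called 945, 910, 3 and 5508, and 2 and 0 for the Dp16 2xIFNRs and Dp16 interactions. The last number of the descriptions, whose meaning is not stated, is shared across groups by 11 animals under 5 numbers. As a random block in limma it gave 5, 5, 0 and 6 members in that order, where 947, 771, 3 and 6612 of all genes were called. It ended the call of Havcr1 in Dp16 2xIFNRs (1.12, adjusted p = 0.0594) and of Sox9 by sex (-0.54, 0.0924). Timp1, Havcr1 and Sox9 had the lowest counts, and how much of their spread comes from depth was not tested.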
